A study of Mus musculus with 11 samples.

Results

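Kidneys of MRL/lpr mice given DNase I were compared with kidneys of untreated MRL/lpr mice across all genes. The comparison held 8 of the 11 kidneys sequenced: 4 from DNase I-treated MRL/lpr mice (DNase) and 4 from untreated MRL/lpr mice (Lpr), chosen by their labels. All mice were female and 21 weeks old, and the DNase mice were injected with DNase I into the peritoneum every day from week 17. Both groups share the MRL background and the lpr mutation of Fas, so that neither is healthy, and 3 C57BL/6J kidneys (Ctr) are given beside them only as a level. A vehicle injection of the untreated mice is not described in the sources used here, so that the enzyme and the daily injection cannot be told apart.

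Fas is a death receptor that removes activated lymphocytes, and MRL/lpr mice, which lack its function, accumulate lymphocytes and autoantibodies and develop a nephritis like that of human lupus. DNA released by dying cells and by neutrophils, which can expel it as neutrophil extracellular traps (NETs), is an antigen and a trigger of type I interferon in this disease. DNase I is a secreted enzyme that cuts such extracellular DNA, and the kidney tubule makes it itself.

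Between 34129247 and 38460873 reads per MRL/lpr kidney were counted on genes. All 30 defining genes of kidney cell types examined (podocyte, tubule, collecting duct, endothelium, fibroblast and mural cell) had at least 1 CPM in every one of the 8 kidneys. CPM is the count scaled to the size of the library. Lpr replicate 3 stood apart. Relative to the mean of the 11 kidneys, Ctr included, its log2 counts had a slope of -0.40 for each doubling of gene length. The other 7 MRL/lpr kidneys had slopes between -0.05 and 0.07. Genes of its shortest bin, with a median length of 676 bp, were 1.08 log2 units above the mean of the 11 kidneys. Those of its longest bin, with a median of 16215 bp, were 0.74 log2 units below it (a deviation of -0.74). The gene lists are therefore given with 8 kidneys and again without Lpr replicate 3, single genes are given with 8 kidneys where nothing else is said, and the part of gene length in the results is shown by a fit from which each kidney's length trend was removed.

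No gene was called between DNase and Lpr kidneys. Of 25677 genes listed, 15832 had enough counts for the test, and 0 (0%) passed edgeR's quasi-likelihood test at a Benjamini-Hochberg adjusted p under 0.05 with an absolute log2 fold change above 2. The smallest adjusted p was 0.82, shared by 361 genes, of which Cndp1 had the smallest unadjusted p. At an unadjusted p under 0.05, 343 genes were higher (2.17%) and 543 lower (3.43%) in DNase. Without Lpr replicate 3, 16006 genes were tested and 0 (0%) were called, the smallest adjusted p was 0.0572, for Frmd4b, and the genes at an unadjusted p under 0.05 numbered 661 higher (4.13%) and 957 lower (5.98%). These shares are the background for the counts of list members at that p. With the length trend removed the shares were 3.3% higher and 4.7% lower with 8 kidneys, and 4.5% and 6.42% without Lpr replicate 3. DESeq2 called 5 genes with 8 kidneys (0.0201%), which were Pax5 and Ces1b higher and F13a1, Clec3b and Mchr1 lower in DNase. Without Lpr replicate 3 it called 11 (0.0448%). They included Ces1b and Pax5 again among the higher and F13a1, Mchr1, Cd163, Lyve1, Grem1, Tnnc2 and Calm4 among the lower genes. Without the threshold on the fold, DESeq2 gave 12 higher (0.0482%) and 7 lower genes (0.0281%) with 8 kidneys, and 97 (0.395%) and 150 (0.61%) without Lpr replicate 3. Since edgeR called none, the genes below are described by their levels and unadjusted p, and none of them is said to have changed. The leading single genes in each direction were named by a rule that took only genes with groups that do not overlap. A lack of overlap in them is therefore part of the choice and not a result.

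The tested genes were divided by length into 3 equal parts. Among the shortest the median log2 fold change was -0.17 with 8 kidneys, and among the longest it was 0.09. With the length trend removed from each kidney these medians were -0.03 and -0.02, and without Lpr replicate 3 they were 0.05 and -0.03. The gene groups made of short genes followed this. All 66 ribosomal protein genes tested were lower in DNase with 8 kidneys (median -0.42), and 61 of 66 were higher without Lpr replicate 3 (median 0.07). Of 51 genes of oxidative phosphorylation, 43 were lower with 8 kidneys (median -0.20) and all 51 were higher without Lpr replicate 3 (median 0.19). The 22 podocyte genes, 19 of which were higher with 8 kidneys (median 0.19), were divided into 11 and 11 without it (median 0.00). Without the removal of the length trend, the direction of these 3 groups therefore rests on 1 kidney. With the trend removed, 61 of the 66 ribosomal genes were lower with 8 kidneys and 41 without Lpr replicate 3 (medians -0.12 and -0.03), 35 and 47 of the 51 oxidative phosphorylation genes were higher (medians 0.07 and 0.14), and 16 and 14 of the 22 podocyte genes were higher (medians 0.12 and 0.03).

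The gene that encodes DNase I itself was higher in the treated kidneys. Dnase1 (chr16:4036958-4040024, GRCm38) had 343, 192, 240 and 208 CPM in DNase replicates 1 to 4. In Lpr replicates 1 to 4 it had 105, 42.8, 198 and 131 CPM, and in Ctr 411 ± 111 CPM (SD, n = 3). Lpr replicate 3, at 198 CPM, lay above the lowest DNase kidney, and the other 3 Lpr kidneys lay below every DNase kidney. The log2 fold change was 1.04 (standard error 0.40, unadjusted p = 0.027 and adjusted p = 0.85 from edgeR). Without Lpr replicate 3 it was 1.40 (standard error 0.35, unadjusted p = 0.00326 and adjusted p = 0.297 from edgeR). The injected enzyme is a protein and adds no mRNA to these counts. In whole kidneys, fewer cells of a type and less RNA per cell cannot be told apart, here and in the groups that follow. Dnase1l3, which encodes the related secreted nuclease of macrophages and dendritic cells, had a log2 fold change of 0.39 (unadjusted p = 0.219 from edgeR) and 0.18 without Lpr replicate 3 (unadjusted p = 0.455 from edgeR).

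Of the 21 nuclease and nucleic acid sensor genes tested, 3 were higher and 18 lower with 8 kidneys, with a median of -0.26, and 9 were higher and 12 lower without Lpr replicate 3, with a median of -0.02. Ang, which encodes the ribonuclease angiogenin, had 9.398, 8.37, 7.21 and 7.62 CPM in DNase and 18.8, 19.5, 15.7 and 12.2 CPM in Lpr replicates 1 to 4, against 1.07 CPM in Ctr. The groups did not overlap, and every MRL/lpr kidney lay above Ctr. Its log2 fold change was -1.03 with 8 kidneys (unadjusted p = 0.000292 from edgeR) and -1.06 without Lpr replicate 3 (unadjusted p = 0.000285 from edgeR). Rnase4, which encodes another ribonuclease of the family, had 151, 119, 94.6 and 117 CPM in DNase and 214, 308, 90.8 and 199 CPM in Lpr. Its log2 fold change was -0.75 with 8 kidneys and -1.0 without Lpr replicate 3, the kidney with its lowest level.

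Ang (chr14:51091077-51102009) and Rnase4 (chr14:51091077-51106151) overlap and share a start in the annotation, so how reads of their common exons were divided bears on both values. The 250 bases before this shared start, at chr14:51090827-51091076 on the + strand of GRCm38.p6 from RefSeq, are shown because they stand before both genes. Rnase4 has another promoter window in the annotation, at chr14:51095750-51095999, which is not shown.
Ang and Rnase4: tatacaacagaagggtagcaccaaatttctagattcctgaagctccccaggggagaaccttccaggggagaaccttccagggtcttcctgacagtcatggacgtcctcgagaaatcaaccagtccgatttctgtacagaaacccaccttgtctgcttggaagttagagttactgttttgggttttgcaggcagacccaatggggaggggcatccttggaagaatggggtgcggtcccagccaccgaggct

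Genes that are turned on by interferon were lower in DNase as a group. Interferons bind receptors that activate transcription factors, and these bind an interferon-stimulated response element in the promoters of antiviral genes. All 37 genes of the list tested were lower in DNase with 8 kidneys, with a median log2 fold change of -0.70, where the median of all tested genes was -0.02. Of these 37, 19 (51.4%) were lower at an unadjusted p under 0.05, as were 3.43% of all tested genes. All 37 were again lower without Lpr replicate 3, with a median of -0.91 beside -0.01 over all tested genes, and 36 (97.3%) had an unadjusted p under 0.05, beside 5.98% of all tested genes. With the length trend removed the medians were -0.68 and -0.90. No gene of the list passed the adjusted p in either fit. Groups without overlap were found for 2 of the 37 with 8 kidneys and for 18 without Lpr replicate 3, where they made up 1.68% and 4.61% of all tested genes in this direction.

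The kidneys within the Lpr group were unlike each other in these genes. The mean log2 CPM over the list was 4.60, 4.61, 4.69 and 4.57 in DNase replicates 1 to 4. In Lpr replicates 1 to 4 it was 5.90, 5.63, 4.57 and 4.82, and in Ctr it lay between 3.20 and 3.35. Lpr replicates 1 and 2 were above every DNase kidney in 37 of 37 genes, Lpr replicate 4 in 18 and Lpr replicate 3 in 12, and Lpr replicate 3 was below every DNase kidney in 17. The 4 treated kidneys lay close to each other, and all of them above Ctr. Leaving out 1 kidney at a time, the median moved between -0.52 (without Lpr replicate 1) and -0.91 (without Lpr replicate 3). When Lpr replicate 1 was left out of the 7 kidneys, it was -0.60, with 28 of 37 genes at an unadjusted p under 0.05.

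**Figure D1:**
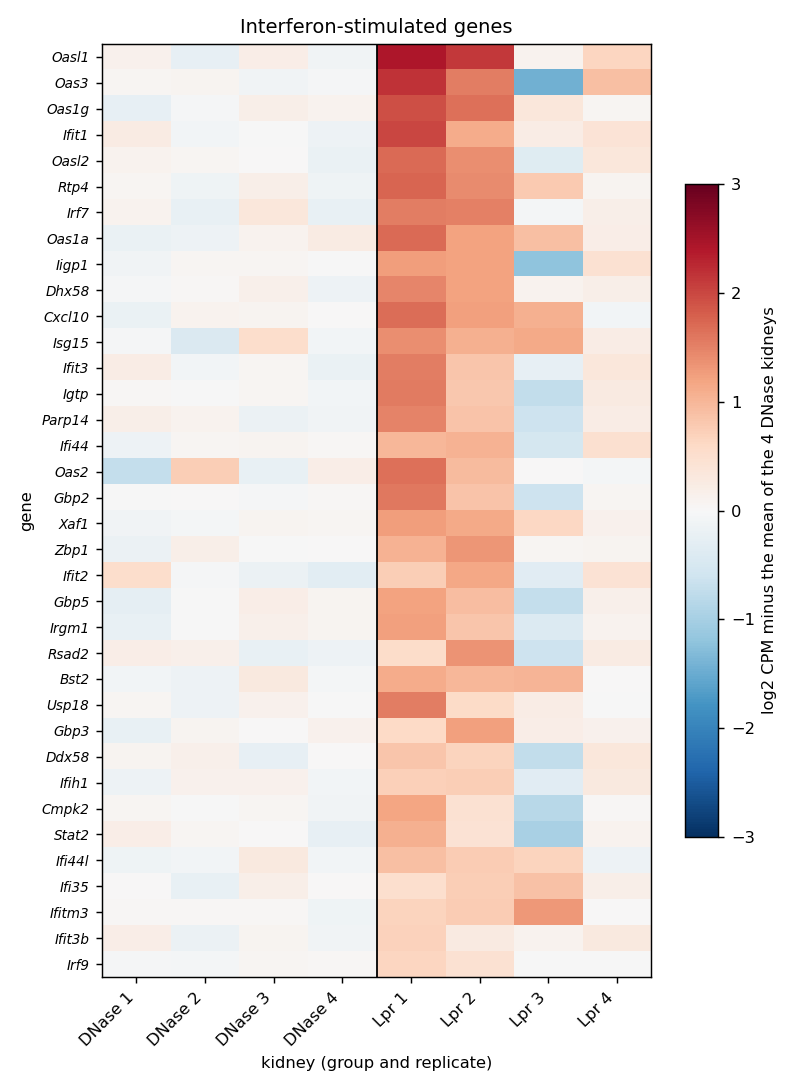
Log2 CPM of 36 of the 37 interferon-stimulated genes (rows) in the 8 MRL/lpr kidneys (columns), minus the mean of the 4 DNase kidneys for each gene. Red is higher and blue lower, from -1.45 to 2.43 in the data. The columns of Lpr replicates 1 and 2 are red for all 36 genes, that of Lpr replicate 4 is paler and that of Lpr replicate 3 holds both colours.

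The response element was looked for in the promoters of this list. The letters GAAANNGAAA, or TTTCNNTTTC as they read on the other strand, were searched in the 250 bases before the gene start in the RefSeq promoters of GRCm38.p6. Of the 37 genes, 29 had a promoter in the table, and 16 of these (55.2%) held the letters. Of all 27025 genes with a promoter 3.46% held them, and of the tested genes with a promoter 3.3%. The list was made of interferon-stimulated genes, so this share describes the list and does not compare DNase with Lpr kidneys. The promoters below are shown because their genes had the 3 smallest unadjusted p without Lpr replicate 3 among the list members reported here that hold the letters. Gbp7, the guanylate-binding protein gene described further on, is shown with them. Capitals mark the matches. They begin 75 bases before the start in Oas3, 104 and 85 bases in Ifit1, 34 bases in Igtp and 53 bases in Gbp7. The windows are chr5:120777660-120777909 (- strand) for Oas3, chr19:34640639-34640888 (+ strand) for Ifit1, chr11:58199306-58199555 (+ strand) for Igtp and chr3:142530086-142530335 (+ strand) for Gbp7.
Oas3: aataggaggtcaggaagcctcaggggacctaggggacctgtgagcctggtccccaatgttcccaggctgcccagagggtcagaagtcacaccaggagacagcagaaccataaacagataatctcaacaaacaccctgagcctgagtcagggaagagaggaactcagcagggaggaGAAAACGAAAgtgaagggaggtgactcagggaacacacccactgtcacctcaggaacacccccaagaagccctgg
Ifit1: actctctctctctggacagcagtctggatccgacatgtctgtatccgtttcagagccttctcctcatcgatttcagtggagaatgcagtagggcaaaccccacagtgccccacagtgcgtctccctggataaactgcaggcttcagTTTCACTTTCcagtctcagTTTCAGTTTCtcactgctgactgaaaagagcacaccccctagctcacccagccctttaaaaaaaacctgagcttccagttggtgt
Igtp: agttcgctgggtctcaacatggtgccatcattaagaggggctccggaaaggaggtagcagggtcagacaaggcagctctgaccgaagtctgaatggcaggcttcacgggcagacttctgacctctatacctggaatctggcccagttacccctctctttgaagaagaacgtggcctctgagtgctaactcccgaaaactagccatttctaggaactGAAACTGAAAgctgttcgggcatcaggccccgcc
Gbp7: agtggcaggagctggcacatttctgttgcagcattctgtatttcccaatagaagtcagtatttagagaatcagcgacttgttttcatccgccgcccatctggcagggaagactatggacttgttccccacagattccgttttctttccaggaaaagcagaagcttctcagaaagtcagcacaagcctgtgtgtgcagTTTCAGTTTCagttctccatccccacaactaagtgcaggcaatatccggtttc

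Oas3, which makes the 2-5A messenger that activates RNase L, had 1.59, 1.63, 1.44 and 1.49 CPM in DNase and 6.93, 4.43, 0.561 and 2.86 CPM in Lpr replicates 1 to 4. Its log2 fold change was -1.26 with 8 kidneys (unadjusted p = 0.0513 from edgeR) and -1.63 without Lpr replicate 3 (unadjusted p = 0.000387 from edgeR). Lpr replicates 1, 2 and 4 were all above the treated kidneys, and Lpr replicate 3 was below them. Ifit1, which binds foreign RNA caps, had 13.1, 10.4, 10.8 and 9.81 CPM in DNase and 43.8, 23.8, 12.8 and 14.5 CPM in Lpr. Igtp, an immunity-related GTPase, had 331, 323, 336 and 309 CPM in DNase and 949, 572, 195 and 391 CPM in Lpr, against 26.9 CPM in Ctr. In each of these genes the order of the Lpr kidneys began with replicate 1 and ended with replicate 3.

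Irf7, the factor that amplifies type I interferon, had 36.8, 29.3, 43.1 and 29.0 CPM in DNase and 99.4, 96.5, 32.6 and 38.6 CPM in Lpr. It differed by -0.95 log2 units with 8 kidneys and by -1.18 without Lpr replicate 3 (unadjusted p = 0.0258 and 0.0032 from edgeR), and Lpr replicates 3 and 4 lay within the range of the treated kidneys. The lowest value of the list was that of Oasl1, at -1.62 and -1.91 in the same order. The cytosolic sensors Ddx58 and Ifih1 had the values -0.38 and -0.41 with 8 kidneys and -0.62 and -0.60 without Lpr replicate 3. Some members share sequence with a near copy: the reading frames of Ifit3 and Ifit3b were 99.1% identical and those of Oas1a and Oas1g 96.8%, so reads may be divided between them.

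The 6 further genes that the rule named as lower without Lpr replicate 3 were Frmd4b and 5 genes known to be induced by interferon. Frmd4b (chr6:97286867-97617657), which encodes a scaffold protein of epithelial junctions, had 54.9, 54.2, 53.6 and 50.2 CPM in DNase and 99.2, 93.2, 46.3 and 117 CPM in Lpr replicates 1 to 4, with 49.9 CPM in Ctr. The 4 treated kidneys lay beside Ctr, and 3 of the 4 Lpr kidneys were above them, while Lpr replicate 3 was below. Without that kidney the log2 fold change was -0.96 (standard error 0.10, adjusted p = 0.0572 from edgeR), and over 17 alternative settings of that fit the adjusted p lay between 2.91e-12 (DESeq2) and 0.493, under 0.05 in 7. With 8 kidneys it was -0.74 (adjusted p = 0.82 from edgeR).

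Gbp8 (chr5:105012513-105053609) and Gbp4 (chr5:105115767-105139586) lie in the same cluster of guanylate-binding protein genes, which encode interferon-induced GTPases that attack intracellular microbes. Gbp8 had 8.56, 11.7, 9.66 and 10.6 CPM in DNase, 33.4, 32.2, 8.57 and 20.6 CPM in Lpr and 0.423 CPM in Ctr. Gbp8 differed by -1.23 log2 units with 8 kidneys and by -1.51 without Lpr replicate 3 (unadjusted p = 0.00702 and 1.68e-05 from edgeR). Gbp4 had log2 fold changes of -0.84 and -1.16, and Gbp7 of -0.58 and -0.92. Siglec1 (chr2:131067801-131086778), the sialic acid-binding lectin CD169 of macrophages, which is itself induced by interferon, had 3.93, 5.83, 4.06 and 4.97 CPM in DNase and 19.3, 19.6, 0.827 and 8.53 CPM in Lpr. In Lpr replicate 3 it was at the level of Ctr, 0.751 CPM. In Gbp8, Gbp4, Gbp7, Siglec1 and Ifi44 the 3 other Lpr kidneys were above all treated kidneys.

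**Figure D2:**
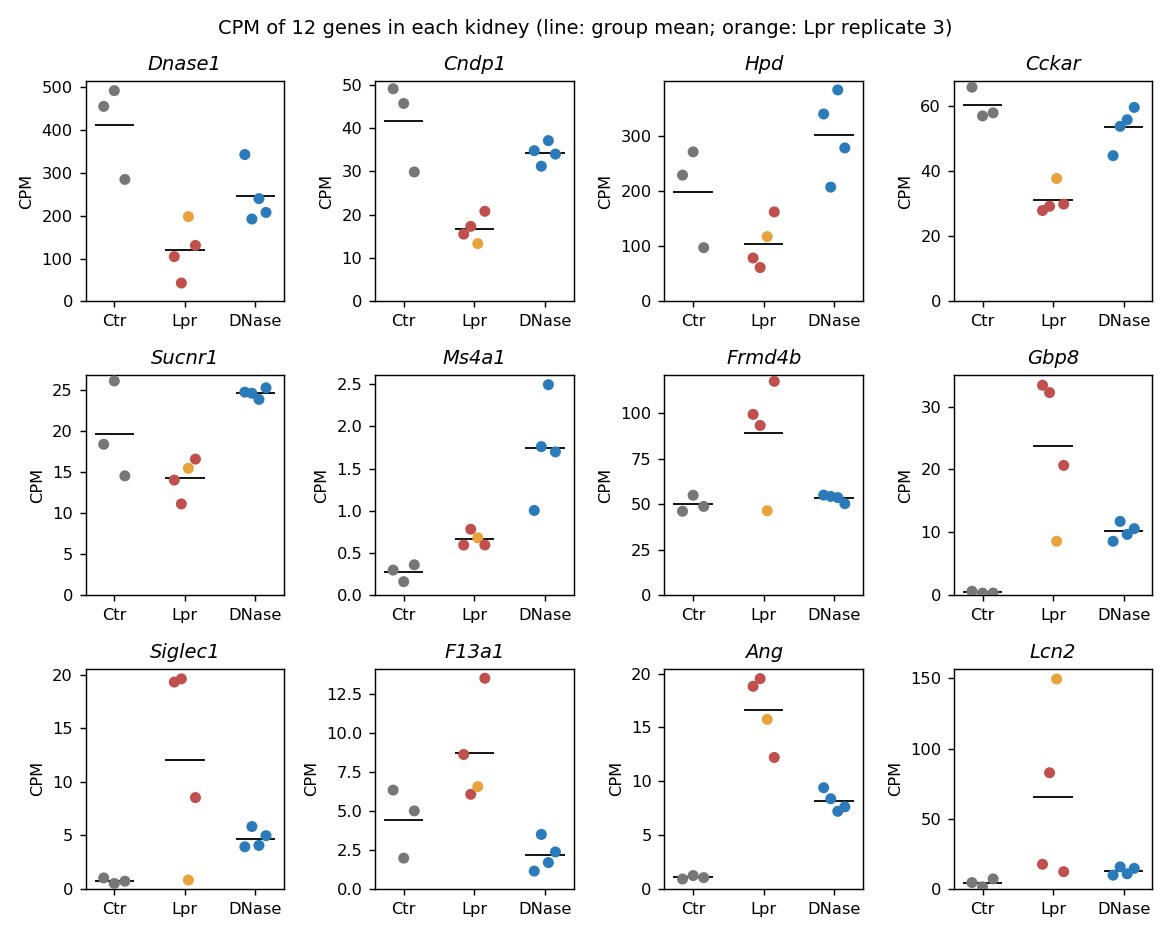
CPM of 12 genes in each kidney of the 3 groups, with each point 1 kidney, a line at the group mean and Lpr replicate 3 in orange; all axes start at 0. Dnase1, Cndp1, Hpd, Cckar, Sucnr1 and Ms4a1 have higher means in DNase than in Lpr, and the other 6 have lower ones. Lpr replicate 3 is the lowest Lpr kidney in Frmd4b, Gbp8 and Siglec1 and the highest in Lcn2.

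Of the single genes higher in DNase with 8 kidneys, Cndp1 had the smallest p. Cndp1, which encodes a dipeptidase that cleaves carnosine, had 34.8, 31.2, 37.1 and 34.0 CPM in DNase and 15.5, 17.3, 13.3 and 20.8 CPM in Lpr, with 41.6 CPM in Ctr. The groups were well apart, and the fold was 2.04 (log2 1.03, standard error 0.16, adjusted p = 0.82 from edgeR). Leaving out Lpr replicate 3 gave 0.93 (standard error 0.12, adjusted p = 0.104 from edgeR). Hpd (chr5:123171807-123182723), the dioxygenase of tyrosine breakdown, had 339, 207, 383 and 278 CPM in DNase and 78.4, 61.1, 117 and 162 CPM in Lpr, with 199 CPM in Ctr. It was higher by 1.52 log2 units with 8 kidneys and by 1.58 without Lpr replicate 3, and the groups did not overlap.

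Sucnr1 (chr3:60081869-60087566), the succinate receptor, had 24.7, 24.6, 23.8 and 25.2 CPM in DNase and 14.0, 11.1, 15.4 and 16.5 CPM in Lpr, with 19.6 CPM in Ctr. Cckar (chr5:53698485-53707704), the cholecystokinin A receptor, had 44.7, 53.7, 55.7 and 59.5 CPM in DNase and 27.8, 29.2, 37.7 and 29.8 CPM in Lpr, with 60.1 CPM in Ctr. Neither gene overlapped between the groups. The log2 fold changes were 0.78 and 0.77 with 8 kidneys, and 0.82 and 0.88 without Lpr replicate 3 (unadjusted p = 0.000178 and 2.1e-05 from edgeR). Gfra1, the receptor subunit for GDNF, and Lypd6, a Wnt co-factor, had log2 fold changes of 0.65 and 0.83 with 8 kidneys and 0.54 and 0.76 without Lpr replicate 3, and Slc6a4, the serotonin transporter, of 0.82 and 0.66.

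The fatty acid hydroxylase Cyp4a14, a target of PPARα, had 628, 744, 712 and 823 CPM in DNase and 560, 319, 274 and 379 CPM in Lpr, with 610 CPM in Ctr. Cyp4a12a had 24.04, 52.3, 55.6 and 56.4 CPM in DNase and between 18.6 and 23.2 CPM in Lpr, with 1.66 CPM in Ctr. DNase replicate 1, at 24.04 CPM, lay just above the Lpr kidneys, and the other 3 were apart from them. Reads of Cyp4a12a may be shared with Cyp4a12b, whose reading frame was 98.6% identical. Fmo4, a flavin monooxygenase, had a log2 fold change of 0.59 (0.60 without Lpr replicate 3), and Gssos2, named as an opposite-strand transcript of Gss, of 0.74 (0.75), although without knowledge of the strand setting its reads cannot be told from those of Gss.

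Of the metabolic lists, amino acid catabolism, fatty acid oxidation and xenobiotic metabolism had most genes higher in DNase in both fits, by small amounts, while sterol and fatty acid synthesis had most genes lower. Of 50 amino acid catabolism genes tested, 40 were higher, with a median log2 fold change of 0.22, and 12 (24%) were higher and 0 lower at an unadjusted p under 0.05, beside 2.17% of all tested genes higher. In the fit without Lpr replicate 3, 45 were higher, with a median of 0.21, and 19 (38%) were higher and 2 (4%) lower at that p, beside 4.13% and 5.98% of all tested genes. The median with 8 kidneys was 0.13 when Lpr replicate 2 was left out. Kmo, Kynu and Haao, which break down tryptophan through kynurenine, had log2 fold changes of 0.50, 0.51 and 0.42, and without Lpr replicate 3 of 0.46, 0.52 and 0.50. Kmo had 187, 175, 185 and 193 CPM in DNase and 134, 119, 117 and 150 CPM in Lpr. Bhmt, which remethylates homocysteine, had 102, 51.7, 72.7 and 58.1 CPM in DNase and 11.9, 9.71, 48.0 and 42.9 CPM in Lpr. The 2 lower ones at that p were Gldc, of the glycine cleavage system, at -0.93, and Hal, the histidine lyase, at -0.92, both without Lpr replicate 3.

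Of 42 genes of fatty acid oxidation and the peroxisome, 34 were higher with 8 kidneys (median 0.17) and 36 without Lpr replicate 3 (median 0.19), and at an unadjusted p under 0.05 the higher ones numbered 8 (19%) and 13 (31%). Leaving out 1 kidney more, the medians reached down to 0.10 and 0.11, the first without DNase replicate 4 and the second without Lpr replicate 2. Cat, which encodes catalase, had 894, 1054, 1159 and 1214 CPM in DNase and 769, 692, 512 and 894 CPM in Lpr. The values of Cat in DNase replicate 1 and Lpr replicate 4 were level, and the other treated kidneys lay above all Lpr kidneys. The 1 member that was lower at that p in both fits was Pdk4, which shuts off glucose oxidation, at -1.15 and -1.35. Lpr replicate 2 held 111 CPM of it, and the other Lpr kidneys between 23.6 and 28.6 CPM. Of 57 xenobiotic and cytochrome P450 genes, 36 were higher (median 0.16) and 40 without Lpr replicate 3 (median 0.23), with 8 (14%) and 20 (35.1%) higher and 3 (5.26%) lower in each fit at that p. Without Lpr replicate 2 the median with 8 kidneys was 0.09. Cyp24a1, which inactivates vitamin D and belongs to this list, was lower, at 45.3, 44.8, 81.3 and 44.9 CPM in DNase and 294, 86.9, 40.0 and 141 CPM in Lpr. Of 34 genes of sterol and fatty acid synthesis, 22 were lower with 8 kidneys (median -0.08) and 25 without Lpr replicate 3 (median -0.06), with 0 higher and 3 (8.82%) lower at that p in each. Without Lpr replicate 4 these medians were 0.04 and 0.02, and without Lpr replicates 2 and 3 the median was 0.01.

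The lists of nephron segments were unlike each other. In the list of the first parts of the proximal tubule, 19 of 33 genes were higher with 8 kidneys (median 0.05) and 13 without Lpr replicate 3 (median -0.06). At an unadjusted p under 0.05, 4 (12.1%) and 7 (21.2%) of them were lower and 0 higher. In the list of its last part 11 of 18 and 15 of 18 were higher (medians 0.14 and 0.20), 3 (16.7%) and 6 (33.3%) of them at that p, with 0 and 1 lower. All 4 medians moved by over 1.5 times with 1 kidney more left out, over the ranges -0.06 to 0.12, -0.10 to 0.06, 0.07 to 0.26 and 0.15 to 0.33 in the order given. The thick limb and distal tubule (18 and 23 of 25 higher, medians 0.30 and 0.20) and the collecting duct (21 and 21 of 27, medians 0.19 and 0.15) had no gene that was higher at that p in either fit, and 1 gene of the distal list was lower without Lpr replicate 3. The medians of the thick limb and distal tubule came down to 0.15 without DNase replicate 1 and, in the second fit, to 0.08 without Lpr replicate 2. Those of the collecting duct came down to 0.02 and 0.00 without DNase replicate 1.

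B cell genes formed the immune group that was higher in DNase. Of 21 B and plasma cell genes tested, 19 were higher with 8 kidneys (median 0.42) and 16 without Lpr replicate 3 (median 0.31), and 6 (28.6%) were higher at an unadjusted p under 0.05 in each fit, beside 2.17% and 4.13% of all tested genes. Without Lpr replicate 1 the median with 8 kidneys was 0.25. Among these 6 were Ms4a1, Pax5, Spib, Fcrla and Blk, genes of B cells before they become plasma cells. Ms4a1, which encodes CD20, had 1.00, 1.76, 2.50 and 1.70 CPM in DNase and 0.594, 0.781, 0.680 and 0.595 CPM in Lpr. Spib, a transcription factor of B cells, had 2.73, 3.12, 4.92 and 3.40 CPM in DNase and at most 1.85 CPM in Lpr. Pax5, the factor that fixes the B cell fate, had 0.390, 0.948, 1.39 and 0.747 CPM in DNase and between 0.118 and 0.198 CPM in Lpr, a difference of 2.29 on the log2 scale (standard error 0.45, unadjusted p = 0.000531 from edgeR) and of 2.15 without Lpr replicate 3. Groups without overlap, with every treated kidney above every Lpr kidney, were found for 6 of the 21 genes of the list in each fit. They made up 2.08% of all tested genes in this direction with 8 kidneys and 4.8% without Lpr replicate 3. For Ms4a1 and Spib the naming rule required it.

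The genes of antibody-secreting plasma cells overlapped between the groups. Jchain, which joins the chains of secreted IgM and IgA, had 271, 979, 571 and 872 CPM in DNase and 143, 616, 668 and 689 CPM in Lpr, with a log2 fold change of 0.34 (unadjusted p = 0.514 from edgeR) and 0.48 without Lpr replicate 3. Xbp1, the factor of the secretory programme, had log2 fold changes of -0.35 and -0.24. The median of the list without Lpr replicate 3 was 0.03 when Lpr replicate 1 was left out as well.

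Genes of monocytes and interstitial macrophages, labelled Mrc1+ macrophage in the figures, were lower in DNase as a group. Of 20 tested, 19 were lower with 8 kidneys (median -0.85, 10 or 50% at an unadjusted p under 0.05) and 17 without Lpr replicate 3 (median -0.92, 12 or 60% at that p), where 3.43% and 5.98% of all tested genes were. Leaving out each kidney in turn, the median stayed between -1.13 and -0.74. The members with the highest CPM, Gas6 and Fn1, differed less, with log2 fold changes of -0.06 and -0.42 (unadjusted p = 0.686 and 0.29 from edgeR). F13a1 (chr13:36867178-37050244), which encodes the A chain of factor XIII, had 1.14, 3.495, 1.69 and 2.37 CPM in DNase and 8.62, 6.07, 6.56 and 13.5 CPM in Lpr, with 4.44 CPM in Ctr. Every Lpr kidney was above every treated kidney, and the log2 fold change was -2.0 (standard error 0.38, unadjusted p = 0.000447 from edgeR) and -2.11 without Lpr replicate 3. Clec10a, a galactose-binding lectin, had 0.920, 2.601, 2.12 and 2.81 CPM in DNase and 5.34, 5.26, 6.24 and 6.85 CPM in Lpr; its reading frame was 96.9% identical to that of Mgl2 over 76% of its length.

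The scavenger receptor Cd163 and the hyaluronan receptor Lyve1 were at low levels, with 0.176 to 0.596 CPM and 0.195 to 0.555 CPM in DNase. In Lpr replicate 4 they had 3.85 and 2.86 CPM, more than in the other Lpr kidneys. Lpr replicate 3, at 0.414 and 0.473 CPM, lay within the range of the treated kidneys. The means in Ctr were 0.99 and 0.956 CPM, above those of DNase, at 0.3 and 0.375 CPM. Mrc1 itself, the mannose receptor, had 16.2, 31.4, 16.7 and 23.5 CPM in DNase and 46.8, 59.2, 22.3 and 31.2 CPM in Lpr. On the log2 scale it differed by -0.86 with 8 kidneys and -1.07 without Lpr replicate 3. The score of the list, the mean of its log2 CPM, lay between 1.75 and 2.62 in DNase and between 2.88 and 3.32 in Lpr without overlap, while Ctr lay between 0.90 and 2.24.

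In the general macrophage, T cell and cytotoxic lists Lpr replicate 2 was the high kidney. The general macrophage list had 25 of 27 genes lower with 8 kidneys (median -0.42) and 26 without Lpr replicate 3 (median -0.40), with 4 (14.8%) and 5 (18.5%) lower, and 0 and 1 higher, at an unadjusted p under 0.05. Lpr replicate 2 was above every treated kidney in 26 of the 27 genes, and Lpr replicates 1, 3 and 4 were so in 8, 11 and 3. Without Lpr replicate 2 the median was -0.20 with 18 genes lower, and without Lpr replicates 2 and 3 it was -0.06. T cell genes had 19 of 25 lower (median -0.21), 0 lower and 1 higher at that p, and 22 lower (median -0.30) and 0 at that p without Lpr replicate 3. The 1 higher gene, named after its values were seen, was Foxp3, the factor of regulatory T cells, at 1.08 (unadjusted p = 0.0246 from edgeR) and 0.91 without Lpr replicate 3. Without Lpr replicate 2 the T cell list turned, with 18 of 25 genes higher (median 0.21) and 3 of them at that p, and without Lpr replicates 2 and 3, 22 were higher (median 0.19). Of 18 genes of cytotoxic cells 15 and 14 were lower (medians -0.50 and -0.59), with a median of -0.07 when Lpr replicate 2 was left out and of 0.05 when Lpr replicates 2 and 3 were. Leaving out DNase replicate 1 also moved the T cell and cytotoxic medians, to -0.13 and -0.30 with 8 kidneys. Gzmb, the granule protease granzyme B, had 7.43 and 14.2 CPM in Lpr replicates 1 and 2, and between 1.59 and 2.55 CPM in the 6 other MRL/lpr kidneys.

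Of 29 neutrophil genes, 23 were lower with 8 kidneys (median -0.29), 3 of them (10.3%) and 0 of the higher ones at an unadjusted p under 0.05, beside 3.43% of all tested genes lower. Among these 3 was Lcn2, which is also a member of the tubular injury list below. Without Lpr replicate 3, 23 of 30 were lower (median -0.23), with 3 (10%) lower and 1 (3.33%) higher at that p. The median was -0.17 without DNase replicate 1, and -0.05 without Lpr replicates 2 and 3. Chemokine ligands had 24 of 29 lower with 8 kidneys (median -0.84) and 21 of 30 without Lpr replicate 3 (median -0.41), and without Lpr replicate 2 as well the median was -0.12. Cxcl10, which attracts T cells and is induced by interferon, had 21.6, 26.9, 26.5 and 25.1 CPM in DNase and 79.2, 58.5, 52.3 and 23.6 CPM in Lpr, so that only Lpr replicate 4 lay within the range of the treated kidneys. Its log2 fold change was -1.10 with 8 kidneys and -1.11 without Lpr replicate 3 (unadjusted p = 0.005 and 0.00736 from edgeR).

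Genes of tubular injury were lower in DNase, and 2 of the Lpr kidneys were the high ones. All 31 tested were lower with 8 kidneys, with a median of -0.85 and 16 (51.6%) at an unadjusted p under 0.05, beside 3.43% of all tested genes. With 7 kidneys, Lpr replicate 3 left out, 30 were lower, with a median of -0.48 and 8 (25.8%) at that p, beside 5.98%, and without Lpr replicates 3 and 2 the median was -0.04. The mean log2 CPM of the list was 6.06 in Lpr replicate 2 and 6.29 in Lpr replicate 3. In Lpr replicates 1 and 4 it was 4.77 and 4.88, within the range of the DNase kidneys (4.61 to 4.87) or just above it. Lcn2, the injury marker NGAL, had 9.79, 15.7, 10.8 and 14.6 CPM in DNase and 17.5, 82.7, 149 and 12.3 CPM in Lpr. Spp1, which encodes osteopontin, had 1853, 2523, 1805 and 2435 CPM in DNase and 2328, 4945, 11500 and 2044 CPM in Lpr.

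The interferon and the injury genes thus singled out different Lpr kidneys, replicates 1 and 2 for the first and replicates 2 and 3 for the second. The 28 immediate early and heat shock genes, which respond within minutes to handling and stress of a tissue, had a median of -0.91 with 8 kidneys and -0.89 without Lpr replicate 3. This rested on Lpr replicate 2, at a mean log2 CPM of 6.51, where the other MRL/lpr kidneys lay between 4.02 and 4.98. Without Lpr replicates 2 and 3 the median was 0.10. The part of these genes in the other results of Lpr replicate 2 was not tested.

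**Figure D3:**
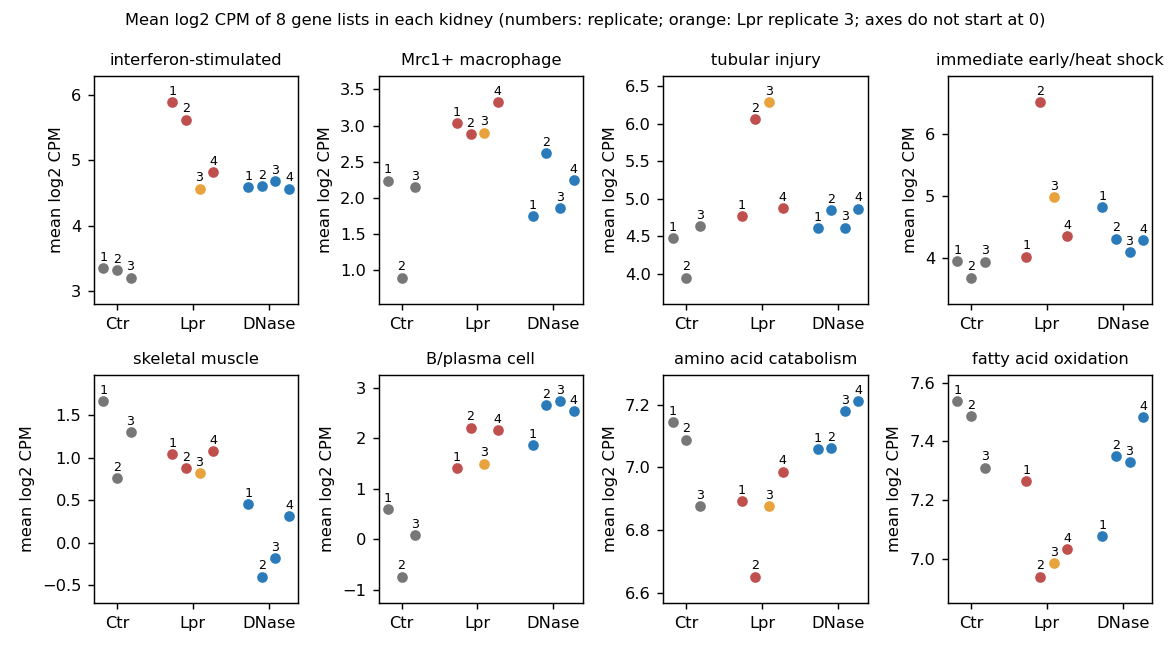
Mean log2 CPM of 8 gene lists in each kidney (1 point per kidney, replicate numbers beside the points, Lpr replicate 3 in orange). The interferon list is high in Lpr replicates 1 and 2 and the injury list in Lpr replicates 2 and 3, while DNase and Lpr kidneys do not overlap in the Mrc1+ macrophage, the skeletal muscle and the amino acid catabolism lists. The axes do not start at 0.

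The genes that the study measured by RT-PCR in kidney were looked at together. This list was chosen by the study for its own question and is not independent of it. Of 13 tested, 8 were lower and 5 higher with 8 kidneys, with a median of -0.08, and 10 were lower and 3 higher without Lpr replicate 3, with a median of -0.15. Without Lpr replicate 2 the median with 8 kidneys was -0.02. Havcr1, which encodes the injury molecule Kim1, had 32.0, 72.7, 25.4 and 76.3 CPM in DNase and 116, 91.5, 281 and 44.6 CPM in Lpr, with 0.881 CPM in Ctr. The log2 fold change was -1.38 (unadjusted p = 0.0333 from edgeR), and without Lpr replicate 3 it was -0.71 (unadjusted p = 0.132 from edgeR). The groups overlapped, since Lpr replicate 4 lay below 2 of the treated kidneys.

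Ccl2, the monocyte chemokine, had a log2 fold change of -1.32 (unadjusted p = 0.0439 from edgeR). It was at 34.2 CPM in Lpr replicate 3 and between 4.02 and 10.3 CPM in the 7 other MRL/lpr kidneys. Without that kidney it was -0.39 (unadjusted p = 0.247 from edgeR). Il1b, Tnf and Nos2 had log2 fold changes of -0.44, 0.19 and 0.04 with unadjusted p of 0.32, 0.733 and 0.944 from edgeR, and -0.47, 0.18 and -0.22 without Lpr replicate 3. Padi4, which citrullinates histones in NETs, had -0.29 in both fits. Hmgb1, Tlr4 and Myd88 had 0.05, -0.07 and -0.13, and 0.16, -0.17 and -0.15 without Lpr replicate 3. Casp9, Bax and Bcl2, which act in cell death, had 0.15, -0.55 and 0.39, and -0.06, -0.07 and 0.15 without Lpr replicate 3. Il6 had too few counts to be tested, with at most 0.827 CPM in any MRL/lpr kidney.

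Genes of tissues beside the kidney also differed between the groups. Of 24 skeletal muscle genes tested, 21 were lower in DNase with 8 kidneys (median -0.95, 14 or 58.3% at an unadjusted p under 0.05) and 20 without Lpr replicate 3 (median -0.98, 12 or 50% at that p), where 3.43% and 5.98% of all tested genes were. Levels were low. Myh2, a fast myosin, had 0.641, 0.650, 0.252 and 0.953 CPM in DNase and 2.18, 1.82, 1.68 and 2.66 CPM in Lpr, with 2.97 CPM in Ctr, and Acta1, skeletal actin, had 2.71, 0.786, 0.756 and 1.21 CPM in DNase and 3.93, 3.46, 3.49 and 5.55 CPM in Lpr. The score of the list lay between -0.40 and 0.45 in DNase, between 0.82 and 1.08 in Lpr and between 0.76 and 1.67 in Ctr, so that the treated kidneys were those that stood apart. Fat genes had a median of -1.86 with 8 kidneys, -1.21 without Lpr replicate 3 and 2.09 without Lpr replicates 3 and 4, and their scores lay between 1.04 and 4.21 in DNase and between 1.07 and 5.54 in Lpr. The adipocyte gene Cfd had 1.79 to 130 CPM in DNase and 4.66 to 824 CPM in Lpr.

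Fibroblast genes were lower beside these, with 25 of 31 lower (median -0.54, 14 or 45.2% at an unadjusted p under 0.05) and 27 without Lpr replicate 3 (median -0.50, 10 or 32.3% at that p), beside the same 3.43% and 5.98%. Clec3b, tetranectin, had 0.892, 2.03, 1.36 and 0.876 CPM in DNase and 2.09, 2.73, 7.36 and 8.67 CPM in Lpr, with 8.24 CPM in Ctr. Mfap5, of the microfibrils, had a log2 fold change of -1.45. Of 48 collagen and matrix genes 35 and 43 were lower (medians -0.29 and -0.40). Lpr replicate 2 was above every treated kidney in 34 of the 48, and Lpr replicates 1, 3 and 4 were so in 4, 16 and 7. Leaving out Lpr replicate 2 gave a median of -0.07, leaving out Lpr replicates 2 and 3 gave -0.11, and leaving out DNase replicate 2 gave -0.55. The Mrc1+ macrophage, fibroblast and muscle lists were thus lower together in the treated kidneys, and how much surrounding tissue came with each kidney was not tested.

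**Figure D4:**
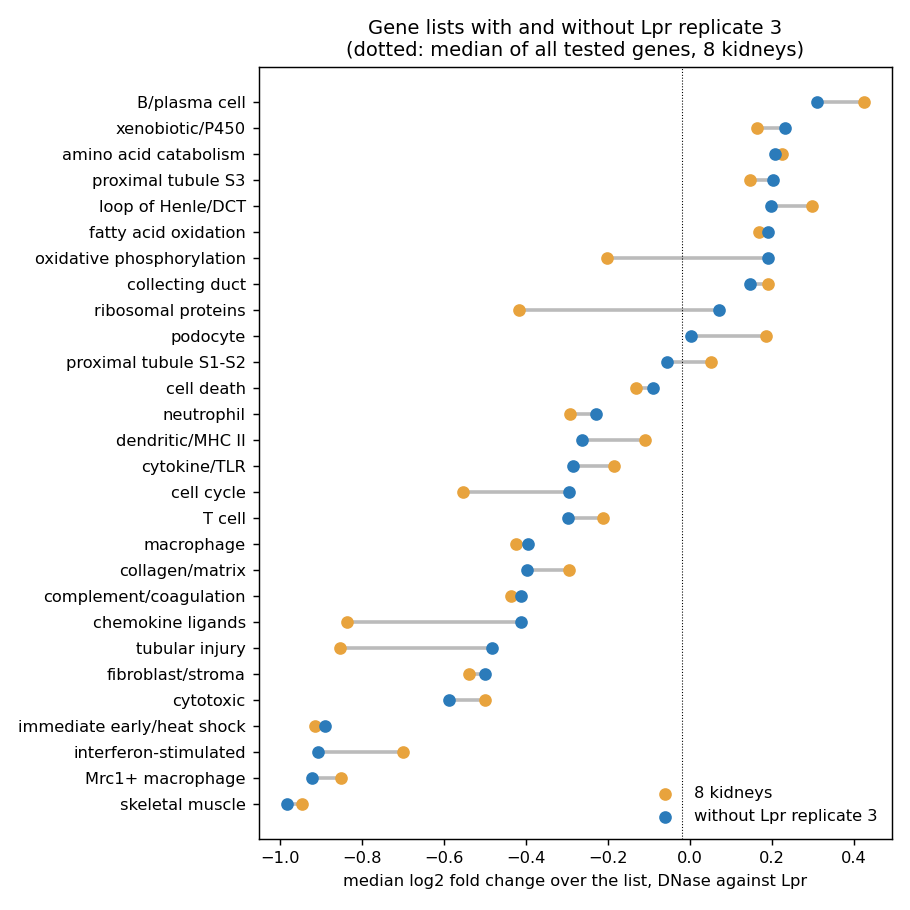
Median log2 fold change of 28 gene lists between DNase and Lpr kidneys, with 8 kidneys (orange) and without Lpr replicate 3 (blue), and a dotted line at the median of all tested genes, -0.02. The B and plasma cell list is at the top and the skeletal muscle list, at -0.95 and -0.98, at the bottom, while the ribosomal and oxidative phosphorylation lists cross 0. The fat list, with lower medians of -1.86 and -1.21, is not among the lists shown.

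Apart from Aacs, of the sterol and fatty acid synthesis list, several of the genes nearest to the threshold belonged to no list above. Gadd45g, a stress-induced growth arrest gene, had 26.2, 19.0, 19.9 and 20.7 CPM in DNase and 31.0, 100.8, 102.4 and 35.2 CPM in Lpr, and its log2 fold change was -1.66 (unadjusted p = 0.00212 from edgeR) and -1.38 without Lpr replicate 3. Noct, which encodes the phosphatase nocturnin, had 13.3, 11.2, 17.9 and 11.4 CPM in DNase and 28.7, 61.9, 26.5 and 21.2 CPM in Lpr. Neither gene overlapped between the groups, as the naming rule required, and Lpr replicate 2 was high in both. Aacs, which uses ketone bodies for lipid synthesis, had 44.0, 58.7, 47.4 and 61.2 CPM in DNase and 137, 77.1, 82.5 and 90.8 CPM in Lpr. With 8 kidneys Psat1, of serine synthesis, had a log2 fold change of -0.50, H2-D1, a class I histocompatibility gene, of -0.72, and Lrg1, an acute phase glycoprotein, of -1.23. Psat1 had -0.51 and Lrg1 -0.94 without Lpr replicate 3.

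Without Lpr replicate 3, further genes stood out as higher. Tmigd1, an adhesion protein of the tubule's brush border, had 81.6, 112, 125 and 122 CPM in DNase and 49.9, 54.7 and 60.1 CPM in Lpr replicates 1, 2 and 4, but 128 CPM in Lpr replicate 3. H2bu2, a histone gene, had 1.49 to 1.78 CPM in DNase, 0.311 to 0.566 CPM in those 3 kidneys and 2.36 CPM in Lpr replicate 3. The aldo-keto reductase Akr1c20 had log2 fold changes of 0.72 with 8 kidneys and 1.17 without Lpr replicate 3 (unadjusted p = 0.000336 from edgeR), and Cmbl and Slc25a21 of 0.66 and 0.71 without it. In Tmigd1 and H2bu2, Lpr replicate 3 was above every treated kidney.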

How the data were processed

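RNA from 11 mouse kidneys was sequenced by the authors as 100 bp paired-end reads, and the 4 DNase and 4 Lpr kidneys were compared here. The authors deposited raw read counts per gene (HTSeq, whole numbers). FPKM values, which the authors derived from these counts, hold a gene length that was recovered as the count divided by FPKM and depth. The submitters' processing notes also name fastp, DESeq2, R 3.2.0 and the build mm10; the aligner is not given in the sources used here, nor is the strand setting. The number of unused columns was 0, and the files held no columns of the authors' own comparisons. Mice were taken as replicates. Between 2 mice of 1 group the chi-square per degree of freedom of the counts was 16.5 to 366, so that depth does not limit the abundant genes.

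edgeR 4.0.16 (glmQLFTest, filterByExpr, TMM) in R 4.3.3 was fitted to the 8 kidneys and to 7 without Lpr replicate 3. Calls were made at an adjusted p under 0.05 with a log2 fold change beyond 2 in either direction. CPM values are scaled by TMM over 11 kidneys, scores use a prior count of 2, and limma was run on log2(FPKM + 1) and log2(FPKM + 0.1). The 37 gene lists and the genes named were chosen with earlier results of these data known. Among genes with groups that do not overlap and a mean of 1 CPM or more, the rule named the 12 genes per direction with the smallest p with 8 kidneys and 6 more without Lpr replicate 3, the genes called by DESeq2, the RT-PCR genes and the leading genes of each list. Other list members were named after their values were seen. On simulated data without a length trend, recovery was counted at an adjusted p under 0.05 with no threshold on the fold. Of 100 genes changed by 1 log2 unit, edgeR recovered 48 with 8 kidneys, at 7 false calls (15832 genes). Without Lpr replicate 3 it recovered 74, at 12 (16006 genes). Of 100 changed by 3 log2 units it recovered 100 and 99. DESeq2 recovered 71 and 84 of those changed by 1 log2 unit, at 42 and 37 false calls. Recovery under the rule used for calls was not counted. Near copies were reading frames with at least 95% identity over 70%, by blastn 2.17.0+. Positions and promoters came from RefSeq on GRCm38.p6, which is mm10, with 175 of 175 named symbols matched. Figures used python 3.11.15 and matplotlib 3.10.9. Alternatives were DESeq2, its size factors, voom with quality weights, length-trend offsets, no filter, a robust fit, all 3 groups, the replicate number as a block and each kidney left out. Results of some named genes are not reported here, although lists and counts include them.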

Additional observations from a re-analysis of the deposited data

Results flagged for a closer look

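Of 194 sets of values within a group of 4 kidneys, 14 held a kidney far from the other 3, where chance alone flags about 5%. Lpr replicate 3 was the distant kidney in 7. They were its slope on gene length (-0.404 log2 units per doubling, others 0.02 to 0.06), the mean log2 CPM of ribosomal protein genes (9.15) and of podocyte genes (5.15), and the CPM of Tmigd1 (127.7), H2bu2 (2.36), Bax (105.0) and Bcl2 (8.57). Lpr replicate 2 was high in Grem1 (8.62 CPM) and Nos2 (14.97 CPM, others 2.15 to 4.04), and Lpr replicate 1 low in the fibroblast list (mean log2 CPM 4.39). DNase replicate 1 was low in Cyp4a12a (24.04 CPM, others 52.3 to 56.4), in the RT-PCR list (3.37) and in the dendritic cell list (3.94), and DNase replicate 2 was high in Cd163 (0.596 CPM).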

How the results depend on the processing

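The count of called genes was 0 with edgeR in both fits. DESeq2 gave 5 with 8 kidneys and 11 without Lpr replicate 3, and leaving out further kidneys gave 0 to 8, the 8 without Lpr replicates 3 and 4, where 2 Lpr kidneys are left. The genes higher in DNase at an unadjusted p under 0.05, 343 with 8 kidneys, were 523 with the length trend removed, 617 with voom quality weights and 216 to 661 with 1 kidney left out (216 without DNase replicate 4, 593 without Lpr replicate 4, 661 without Lpr replicate 3). The lower ones, 543, were 877 with DESeq2, 834 without a filter, 271 on log2(FPKM + 1) and 321 to 957 with 1 kidney left out (321 without DNase replicate 4, 894 without Lpr replicate 4, 957 without Lpr replicate 3). Without Lpr replicate 3 the higher genes, 661, were 447 to 1003 with another kidney left out, and the lower ones, 957, were 577 on log2(FPKM + 1) and 553 to 1454 (553 without DNase replicate 4, 1003 and 1454 without Lpr replicate 4). The replicate number as a block gave 374 higher and 418 lower genes with 8 kidneys, and 409 and 662 without Lpr replicate 3, with 0 called; the correlations of same-numbered kidneys, 0.03, 0.14, 0.18 and -0.12, do not show a pairing. Small log2 fold changes turned sign: Il1b 0.015 (range -0.798 to 0.015 with 1 kidney left out), Padi4 0.015 (-0.745 to 0.015) and Hmgb1 -0.022 (-0.022 to 0.163) without Lpr replicate 2, Tnf -0.278 without DNase replicate 3 and -0.059 without Lpr replicate 4 (-0.278 to 0.554), Casp9 -0.004 with voom quality weights and -0.059 without Lpr replicate 3 (-0.059 to 0.262), and Nos2 -0.182, -0.104, -0.221 and -0.235 without DNase replicate 3 and Lpr replicates 1, 3 and 4 (-0.235 to 1.066). The causes were not tested. In the simulation, with 4 or 3 kidneys a group and no threshold on the fold, changes of 1 log2 unit were found in part only.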
